A study of Homo sapiens with 15 samples.

Results

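The genes described here are 4 chemokine ligands (CCL3, CCL3L3, CCL4 and CCL5), 3 chemokine receptors (CXCR4, CCR1 and CCR2) and RGS1, a regulator of G protein signalling, in multiple myeloma (MM) cells cultured with and without bone marrow stromal cells (BMSCs). They were chosen by name, by their values in the comparisons reported here, and they are 8 of the 20468 RefSeq genes in the tables of both cell lines. Their levels and fold changes are therefore given as a description, without a test. Tests are given only for other genes of the chemokine system and for cell type markers.

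The MM cells were of 2 established human lines, MM.1S and RPMI8226, and HS5, a line of human bone marrow stroma that is also established, stood for BMSCs. MM cells were taken from a monoculture (MONO), from an upper transwell above HS5 cells (TSW), or from the lower chamber shared with HS5 cells (CO), and the study sorted them as CD90-negative, CD38-positive cells. RNA-Seq of mRNA was made with 3 libraries per condition for MM.1S and 2 for RPMI8226, 15 libraries in all, with 9008977 to 19050772 reads on genes per library. Expression is given as RPKM, reads per kilobase of transcript relative to the depth of the library.

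In MONO the MM cells had no BMSCs, in TSW they shared only the medium with BMSCs across a membrane, and in CO they shared the chamber with them. The comparison of TSW with MONO addresses soluble factors, that of CO with MONO the whole coculture, and that of CO with TSW what sharing the chamber adds. By the study's methods, trypsin was used for the coculture conditions, and a coculture well held MM cells in both chambers besides HS5 cells. Handling and cell number thus differ from MONO along with soluble factors, and these cannot be told apart. The comparisons of TSW and of CO with MONO share their MONO libraries, so they are not independent. By the study's methods a transwell was placed over a well of the coculture, so TSW and CO cells could share a well, and the labels do not say which libraries did. Nothing in the labels says that replicates came from separate cultures, and every p-value measures only the spread between these libraries. The lines were normalised in separate tables, so all tests were made within a line and levels of the lines are set side by side without a test.

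Chemokines are small secreted proteins that direct cell migration through G protein-coupled receptors. CCL3, CCL4 and CCL5 are inflammatory CC chemokines: CCL3 and CCL5 bind CCR1, and CCR2 is the receptor of CCL2. CXCR4, the receptor of the stromal chemokine CXCL12, retains plasma cells and MM cells in bone marrow, MM cells are a known source of CCL3, which promotes osteoclast formation, and RGS1 dampens chemokine receptor signals by speeding GTP hydrolysis on G alpha subunits.

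Of the 8 genes, 6 had a mean RPKM of 1 or more in MM.1S (all but CCL4 and CCR2) and 5 in RPMI8226 (all but CCL3, CCL3L3 and CCL4). Most of them were far above the typical gene: RGS1 ranked 344 of 20468 by mean RPKM in MM.1S MONO and CCL3 ranked 432. In RPMI8226 CO, CCR1 ranked 183 and CCR2 ranked 303. CCL4 was the lowest of the ligands in MM.1S, with a rank of 9368 in MONO. In both lines CXCR4 was lower in TSW and CO than in MONO, while CCL5 and RGS1 were below their MONO level in MM.1S and above it in RPMI8226. As the libraries are bulk RNA, fewer cells that express a gene and less RNA per cell cannot be told apart.

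**Figure D1:**
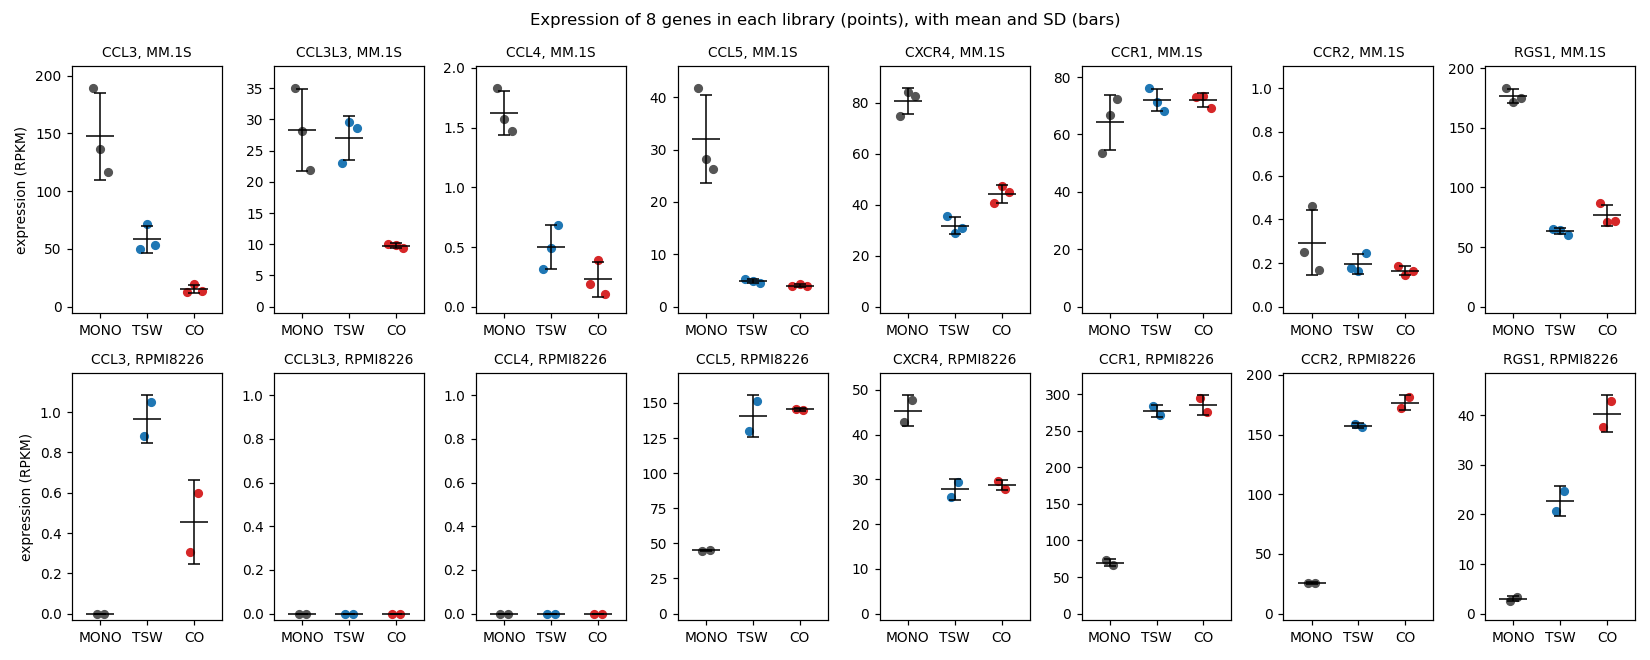
Expression in RPKM (y-axis, scaled for each panel) of the 8 genes in MONO, TSW and CO of MM.1S (upper panels) and RPMI8226 (lower panels); each point is a library, and the bars show the mean and SD. RGS1 lies between 171 and 183 RPKM in MONO and between 60.5 and 86.9 RPKM in TSW and CO of MM.1S, and between 2.63 and 3.32 RPKM in MONO and 20.6 and 43.0 RPKM in TSW and CO of RPMI8226.

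The 4 ligands lie together on chromosome 17 (GRCh38): CCL5 (Entrez 6352) at chr17:35871491-35880360, CCL3 (Entrez 6348) at chr17:36088256-36090143, CCL4 (Entrez 6351) at chr17:36103827-36105614 and CCL3L3 (Entrez 414062) at chr17:36194869-36196758. With CCL4L2 (Entrez 9560), a copy of CCL4 at chr17:36211063-36212873, they span 341 kb. CCL3L3 and CCL4L2 are near-identical copies of CCL3 and CCL4, and the further copies CCL3L1 and CCL4L1 are not in the tables. How reads that map to both copies were assigned is not stated, so the split of reads between a gene and its copy is uncertain.

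The promoters of CCL3 and CCL3L3 are shown because they are alike while the values of these genes are not. Each covers 300 bases, most of them before the annotated start (RefSeq, GRCh38.p14), CCL3 at chr17:36090094-36090393 and CCL3L3 at chr17:36196709-36197008, both on the minus strand.
CCL3: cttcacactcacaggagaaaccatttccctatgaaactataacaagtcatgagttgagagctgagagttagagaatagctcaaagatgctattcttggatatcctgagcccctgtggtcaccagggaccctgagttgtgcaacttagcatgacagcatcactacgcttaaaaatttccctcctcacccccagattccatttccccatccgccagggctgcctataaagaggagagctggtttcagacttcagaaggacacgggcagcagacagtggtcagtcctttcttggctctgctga
CCL3L3: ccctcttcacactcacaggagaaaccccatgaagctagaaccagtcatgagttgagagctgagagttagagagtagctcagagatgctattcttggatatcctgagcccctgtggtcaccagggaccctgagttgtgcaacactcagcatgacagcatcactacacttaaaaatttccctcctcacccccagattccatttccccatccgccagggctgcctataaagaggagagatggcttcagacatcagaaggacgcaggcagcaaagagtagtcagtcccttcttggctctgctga

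RefSeq entries were found for the promoters of 6 of the 8 genes, CCL3, CCL3L3, CXCR4, CCR1, CCR2 and RGS1. Aligned end to end, the promoters of CCL3 and CCL3L3 are identical in 278 of 306 columns (90.9%), against 44.3% to 50.5% for the other 14 pairs among the 6 promoters. The promoters were searched on both strands, as exact letters with N for any base, for a STAT motif (TTCNNNGAA), an AP-1 motif (TGANTCA), a CRE motif (TGACGTCA) and the NFkB motif, which has 10 letters, and no match overlapped another. Of 35116 promoters of the same length, 7.66% hold the STAT motif, 7.71% the AP-1 motif, 1.85% the CRE motif and 1.91% the NFkB motif. The promoters of CCL3 and CCL3L3 hold no match to these letters.

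In MM.1S, CCL3 was at 189, 136 and 117 RPKM in the MONO libraries, at 49.97, 71.6 and 53.3 RPKM in the TSW libraries and at 13.01, 19.7 and 13.9 RPKM in the CO libraries. The levels fell into 3 separate steps without overlap, highest in MONO and lowest in CO. The means were 147 ± 37.4 RPKM in MONO, 58.3 ± 11.6 RPKM in TSW and 15.5 ± 3.64 RPKM in CO (SD, n = 3). The log2 fold change of RPKM + 1 was -1.31 in TSW and -3.16 in CO relative to MONO, and -1.85 in CO relative to TSW (SE 0.20), so the mean was 2.53-fold lower in TSW than in MONO and 9.49-fold lower in CO than in MONO. CCL3 was the member with the widest step between TSW and CO in MM.1S.

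RPMI8226 had little CCL3 RNA. No read was found in either MONO library, the TSW libraries held 0.880 and 1.05 RPKM (13 and 15 reads), and the CO libraries held 0.308 and 0.601 RPKM (4 and 9 reads). Against the highest level that 3 reads would give in a MONO library, the mean was at least 3.20-fold higher in TSW and at least 1.51-fold higher in CO; such floors cover counting error only. TSW was the highest of the conditions here, and its libraries did not overlap those of CO.

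CCL3L3, which encodes a chemokine nearly identical to CCL3, was at 35.0, 28.2 and 21.8 RPKM in MONO, at 23.0, 29.6 and 28.6 RPKM in TSW and at 10.0, 9.94 and 9.34 RPKM in CO of MM.1S. The MONO and TSW libraries overlapped, and the CO libraries lay below both. The log2 fold change was -0.05 in TSW and -1.42 in CO relative to MONO, and -1.37 in CO relative to TSW (SE 0.15). The sign of the first of these turned without MONO replicate 1 (0.11) or without TSW replicate 1 (0.06). In RPMI8226 no read was assigned to CCL3L3 in any library, which allows up to 0.206 to 0.311 RPKM depending on the library.

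The copy and its gene therefore did not keep a fixed ratio in MM.1S. The ratio of CCL3L3 to CCL3 in RPKM averaged 0.193 ± 0.0124 for MONO, 0.470 ± 0.0626 for TSW and 0.649 ± 0.135 for CO (SD, n = 3). The TSW ratios, 0.460, 0.413 and 0.537, all lay above the highest MONO ratio of 0.207, and overlapped with the CO ratios of 0.771, 0.504 and 0.673. Summed, CCL3 and CCL3L3 were at 176 ± 43.9 RPKM in MONO, 85.4 ± 14.4 RPKM in TSW and 25.3 ± 3.76 RPKM in CO. The counted lengths of the copies are close (797 and 774 bases), so these sums depend little on how reads were split between them, and they had the same order of conditions as CCL3 alone, with log2 fold changes of -1.02 in TSW and -2.73 in CO relative to MONO. They do depend on whether reads that map to both copies were counted at all.

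CCL4, a chemoattractant of monocytes and T cells, was close to the detection limit in MM.1S, with 1 to 20 reads per library. Its levels were 1.83, 1.57 and 1.47 RPKM in MONO, 0.315, 0.493 and 0.685 RPKM in TSW and 0.186, 0.391 and 0.108 RPKM in CO. The MONO libraries lay above all others, and those of TSW and CO overlapped. The mean was 1.62 ± 0.186 RPKM in MONO, 0.498 ± 0.185 RPKM in TSW and 0.229 ± 0.146 RPKM in CO (SD, n = 3), 3.26-fold and 7.11-fold lower in TSW and CO than in MONO.

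The copy CCL4L2 held more reads than CCL4 in every MM.1S library. It was at 3.53, 2.25 and 2.52 RPKM in MONO, at 4.46, 4.65 and 3.39 RPKM in TSW and at 2.27, 1.66 and 1.72 RPKM in CO. The ratio of CCL4L2 to CCL4 averaged 1.69 ± 0.249 for MONO, 9.51 ± 4.60 for TSW and 10.8 ± 5.96 for CO (SD, n = 3). The sums of CCL4 and CCL4L2 were 4.39 ± 0.843, 4.67 ± 0.543 and 2.11 ± 0.317 RPKM in MONO, TSW and CO, so the order of MONO and TSW seen in CCL4 alone turns when the copies are summed (log2 fold change 0.08 in place of -0.81), and the sums of MONO and TSW overlapped. The counted lengths differ here (667 bases for CCL4 and 1258 for CCL4L2), so the sums in RPKM also depend on how reads were split. In RPMI8226 no library held a read on CCL4, and CCL4L2 was at 0 except for 3 reads in 1 CO library.

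**Figure D2:**
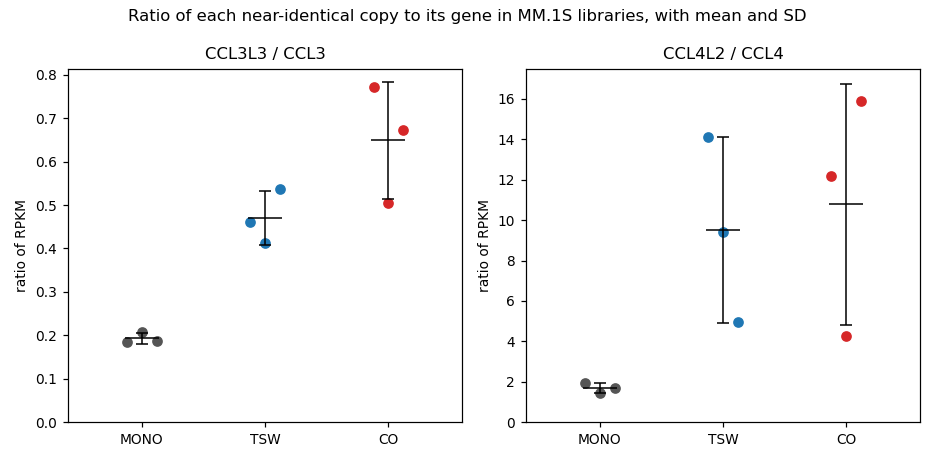
Ratio of the RPKM of a near-identical copy to that of its gene (y-axis) in each MM.1S library of MONO, TSW and CO, for CCL3L3 over CCL3 and for CCL4L2 over CCL4; points are libraries, and the bars show the mean and SD. The ratio of CCL3L3 to CCL3 lies between 0.185 and 0.207 in MONO and between 0.413 and 0.771 in TSW and CO.

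CCL5, whose receptors include CCR1 and CCR3, went in opposite directions in the lines. In MM.1S it was at 41.7, 28.1 and 26.3 RPKM in MONO, at 5.34, 4.86 and 4.53 RPKM in TSW and at 3.93, 4.27 and 3.91 RPKM in CO. In RPMI8226 it was at 44.9 and 45.5 RPKM in MONO, at 130.4 and 151 RPKM in TSW and at 146 and 145 RPKM in CO. All MONO levels lay between 26.3 and 45.5 RPKM, and TSW and CO lay below MONO in MM.1S and above it in RPMI8226 without overlap.

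The mean of CCL5 in MM.1S was 32.0 ± 8.43 RPKM in MONO, 4.91 ± 0.410 RPKM in TSW and 4.04 ± 0.203 RPKM in CO (SD, n = 3). Its log2 fold change was -2.46 in TSW and -2.68 in CO relative to MONO, and -0.23 in CO relative to TSW (SE 0.15), the last without overlap of the libraries. The mean of CCL5 in RPMI8226 was 45.2 ± 0.400 RPKM in MONO, 141 ± 14.8 RPKM in TSW and 145 ± 0.761 RPKM in CO (SD, n = 2). There the log2 fold change was 1.62 in TSW and 1.66 in CO relative to MONO (SE 0.08), and CO and TSW overlapped.

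CXCR4 (Entrez 7852, chr2:136114349-136118149) was abundant in both lines and was the 1 member with a mean RPKM of 1 or more that was lower in TSW and CO than in MONO in both. In MM.1S it was at 74.8, 84.3 and 82.5 RPKM in MONO, at 35.6, 29.1 and 30.8 RPKM in TSW and at 40.5, 47.5 and 44.9 RPKM in CO. In RPMI8226 it was at 42.8 and 47.8 RPKM in MONO, at 26.1 and 29.4 RPKM in TSW and at 29.6 and 27.9 RPKM in CO. MONO lay above the other conditions in each line, CO lay above TSW in MM.1S, and CO and TSW overlapped in RPMI8226.

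In MM.1S the mean of CXCR4 was 80.5 ± 5.06 RPKM in MONO, 31.8 ± 3.37 RPKM in TSW and 44.3 ± 3.54 RPKM in CO (SD, n = 3). The log2 fold change of CXCR4 was -1.32 in TSW and -0.85 in CO relative to MONO, and 0.47 in CO relative to TSW (SE 0.10). In RPMI8226 the mean was 45.3 ± 3.51 RPKM in MONO, 27.7 ± 2.36 RPKM in TSW and 28.7 ± 1.16 RPKM in CO (SD, n = 2), with log2 fold changes of -0.69 and -0.64 relative to MONO (SE 0.09). These are means 1.63-fold and 1.58-fold lower than in MONO.

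CCR1 (Entrez 1230, chr3:46201711-46208313) and CCR2 (Entrez 729230, chr3:46354111-46360940) lie near each other on chromosome 3, with 146 kb between them, and their levels followed each other closely in RPMI8226. Their promoters are shown for that reason, CCR1 at chr3:46208264-46208563 on the minus strand and CCR2 at chr3:46353861-46354160 on the plus strand. Capitals mark a match to the STAT motif in CCR1 and to the AP-1 motif in CCR2.
CCR1: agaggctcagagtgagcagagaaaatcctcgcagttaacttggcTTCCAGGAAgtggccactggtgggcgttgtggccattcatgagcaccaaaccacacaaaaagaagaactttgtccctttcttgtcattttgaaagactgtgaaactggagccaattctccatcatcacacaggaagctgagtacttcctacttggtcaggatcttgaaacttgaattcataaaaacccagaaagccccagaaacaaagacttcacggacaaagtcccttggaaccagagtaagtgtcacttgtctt
CCR2: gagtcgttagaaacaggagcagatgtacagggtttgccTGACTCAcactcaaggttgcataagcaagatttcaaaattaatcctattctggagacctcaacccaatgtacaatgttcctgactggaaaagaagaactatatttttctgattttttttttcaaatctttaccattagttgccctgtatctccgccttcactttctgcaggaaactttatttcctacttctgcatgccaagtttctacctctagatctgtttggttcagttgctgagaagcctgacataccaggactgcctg

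The STAT match of CCR1 starts at position -206 and the AP-1 match of CCR2 at position -212 relative to the annotated start. They were the only matches to the 4 motifs in the 6 promoters found, and a match is a description of letters and not of binding.

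CCR1, a receptor of CCL3 and CCL5, was at 73.1 and 66.0 RPKM in MONO, at 283 and 272 RPKM in TSW and at 295 and 276 RPKM in CO of RPMI8226. In MM.1S it was at 53.6, 66.9 and 72.2 RPKM in MONO, at 76.1, 71.4 and 68.4 RPKM in TSW and at 73.2, 73.4 and 69.2 RPKM in CO. The lines had like levels of CCR1 in MONO, RPMI8226 was far higher in TSW and CO, and the conditions of MM.1S overlapped.

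The mean of CCR1 in RPMI8226 was 69.5 ± 4.98 RPKM in MONO, 278 ± 8.11 RPKM in TSW and 285 ± 13.5 RPKM in CO (SD, n = 2), 3.99-fold and 4.10-fold higher than in MONO. The log2 fold changes were 1.98 and 2.02 relative to MONO (SE 0.07), and CO and TSW overlapped. In MM.1S the mean was 64.3 ± 9.57 RPKM in MONO, 72.0 ± 3.91 RPKM in TSW and 71.9 ± 2.38 RPKM in CO (SD, n = 3), with a log2 fold change of 0.17 in both TSW and CO relative to MONO (SE 0.11). The difference between CO and TSW in MM.1S was near 0, and its sign turned with quantile normalization (0.04).

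CCR2, the receptor of CCL2 and CCL7, was at 25.3 and 26.0 RPKM in MONO, at 159 and 156 RPKM in TSW and at 172 and 181 RPKM in CO of RPMI8226. The conditions formed 3 steps without overlap, lowest in MONO and highest in CO. The mean was 25.7 ± 0.487 RPKM in MONO, 157 ± 2.02 RPKM in TSW and 177 ± 6.19 RPKM in CO (SD, n = 2). The log2 fold change was 2.57 in TSW and 2.74 in CO relative to MONO, and 0.17 in CO relative to TSW (SE 0.06), which are means 6.13-fold, 6.89-fold and 1.12-fold higher.

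MM.1S had little CCR2 RNA, with 0.147 to 0.460 RPKM over all libraries and 9 to 35 reads each. The 3 conditions overlapped, with means of 0.293 RPKM in MONO, 0.196 RPKM in TSW and 0.166 RPKM in CO. The receptor was thus among the most abundant RNAs in RPMI8226 CO and near the detection limit in MM.1S CO.

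RGS1 (Entrez 5996, chr1:192575773-192580024) is a GTPase-activating protein for G alpha subunits and is known to limit responses to chemokine receptors such as CXCR4. Its promoter, chr1:192575523-192575822 on the plus strand, is shown because its level differed from MONO in opposite directions in the lines, and it holds no match to the 4 motifs.
RGS1: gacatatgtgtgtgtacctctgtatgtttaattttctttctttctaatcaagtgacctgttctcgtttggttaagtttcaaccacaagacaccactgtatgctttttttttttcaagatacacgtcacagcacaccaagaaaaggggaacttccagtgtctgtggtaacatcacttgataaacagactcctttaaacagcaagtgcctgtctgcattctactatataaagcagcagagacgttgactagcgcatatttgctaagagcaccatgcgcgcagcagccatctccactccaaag

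In MM.1S, RGS1 was at 183, 171 and 175 RPKM in MONO, at 65.5, 64.1 and 60.5 RPKM in TSW and at 86.9, 71.2 and 72.0 RPKM in CO. In RPMI8226 it was at 2.63 and 3.32 RPKM in MONO, at 20.6 and 24.8 RPKM in TSW and at 37.7 and 43.0 RPKM in CO. MONO was the highest condition in MM.1S and the lowest in RPMI8226, and the 3 conditions did not overlap in either line. CO lay above TSW in both.

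The mean of RGS1 in MM.1S was 176 ± 6.05 RPKM in MONO, 63.4 ± 2.59 RPKM in TSW and 76.7 ± 8.85 RPKM in CO (SD, n = 3). Its log2 fold change was -1.46 in TSW and -1.20 in CO relative to MONO, and 0.27 in CO relative to TSW (SE 0.10). In RPMI8226 the mean of RGS1 was 2.97 ± 0.491 RPKM in MONO, 22.7 ± 2.94 RPKM in TSW and 40.3 ± 3.73 RPKM in CO (SD, n = 2), 7.64-fold and 13.6-fold higher than in MONO. The log2 fold changes were 2.58 and 3.38 relative to MONO, and 0.80 in CO relative to TSW (SE 0.12). The gap between the lines narrowed from MONO to CO, where MM.1S still held the higher level.

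**Figure D3:**
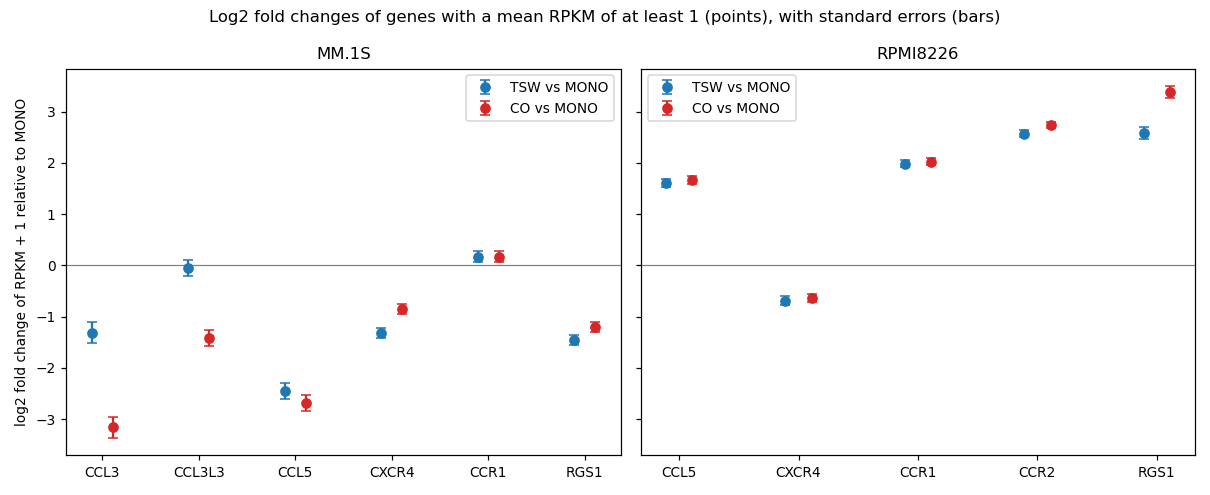
Log2 fold change of RPKM + 1 relative to MONO (y-axis) in TSW and CO for the genes with a mean RPKM of 1 or more, 6 in MM.1S (left panel) and 5 in RPMI8226 (right panel); points are limma estimates and bars their standard errors. CCL5 is at -2.46 and -2.68 in MM.1S and at 1.62 and 1.66 in RPMI8226, RGS1 is at -1.46 and -1.20 in MM.1S and at 2.58 and 3.38 in RPMI8226, and CXCR4 is negative in both lines.

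Counted over the members with a mean RPKM of 1 or more, the libraries of TSW and MONO did not overlap for 4 of 6 members in MM.1S, all lower in TSW, where 44% of the 10153 genes tested did not overlap. For CO and MONO it was 5 of 6, all lower in CO, against 43.9% of genes, and for CO and TSW 5 of 6, with 2 higher and 3 lower in CO, against 16.3% of genes. In RPMI8226 the libraries of TSW and MONO did not overlap for 5 of 5 members, with 4 higher and 1 lower in TSW, against 82.9% of the 10319 genes tested. For CO and MONO it was again 5 of 5, with 4 higher and 1 lower, against 87% of genes, and for CO and TSW 2 of 5, both higher in CO, against 65.3% of genes. Nothing is read from these counts, since the members were chosen by these comparisons.

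Across the 9 MM.1S libraries, log2(RPKM + 1) of RGS1 had a Pearson correlation of 0.96 with CCL5, 0.95 with CXCR4 and 0.68 with CCL3. CCR1 had negative correlations with each of the other 5 members, from -0.66 to -0.46. Across the 6 RPMI8226 libraries, CCL5, CCR1, CCR2 and RGS1 had correlations of 0.969 to 0.997 with each other, the highest between CCR1 and CCR2, and -0.98 to -0.92 with CXCR4. CCL5 and CXCR4 were thus positively correlated in MM.1S (0.88) and negatively in RPMI8226 (-0.96). The libraries fall into conditions, so these values describe the differences between conditions again and carry no p-value.

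The other genes of the chemokine system were taken from 5 lists of 134 genes (chemokine ligands, chemokine receptors, other positioning receptors, the RGS family and receptor signalling), of which 132 are in the tables. A gene was tested where its mean RPKM in the line was 1 or more, and was called where limma gave an adjusted p under 0.05 with more than a 1.5-fold difference. In MM.1S, 7 of 44 tested list genes were called in TSW against MONO (3 higher, 4 lower), 7 in CO against MONO (5 higher, 2 lower) and 4 in CO against TSW (3 higher, 1 lower). Without genes that MONO and TSW held at an RPKM under 2, a setting chosen after seeing the data, the counts fell. They were 3 in CO against MONO, with 1 gene of receptor signalling higher and 2 chemokine receptors lower. In CO against TSW the count was 1, the ligand CCL4L2, which was lower. It is the copy of the member CCL4, and the split of reads between them is uncertain. The setting leaves out genes low in MONO and TSW, which have little room to be lower in CO, so no direction is read from these counts. Over all genes it left 1122 called in CO against MONO and 12 in CO against TSW. Of all 10153 genes tested in MM.1S, 6.48% were called higher and 4.16% lower in TSW against MONO, 7.13% and 4.65% in CO against MONO, and 0.374% and 0.0394% in CO against TSW.

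In RPMI8226, 16 of 50 tested list genes were called in TSW against MONO (10 higher, 6 lower), 21 in CO against MONO (14 higher, 7 lower) and 6 in CO against TSW (6 higher, 0 lower). Without genes under that level in MONO and TSW, the counts were 17 and 2 in the comparisons of CO with MONO and with TSW. CXCL8, which passed the filter through its level in TSW and CO, is in all of these counts. Of all 10319 genes tested in RPMI8226, 14.5% were called higher and 17.9% lower in TSW against MONO, 16.4% and 22.9% in CO against MONO, and 1.9% and 2.39% in CO against TSW. With quantile normalization the share of higher genes among those called in CO against TSW was 59.7%, in place of 44.2%. With median-of-ratios scaling the share was 52.6% in place of 44.7% in TSW against MONO, 50.9% in place of 41.7% in CO against MONO and 53.8% in CO against TSW, while with quantile normalization it was 47.5% and 47.1% in the comparisons of TSW and of CO with MONO. In RPMI8226 it therefore depends on the scaling whether more genes were called higher or lower.

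The median log2 fold change of the tested list genes was 0.00 in TSW and 0.02 in CO relative to MONO and 0.00 in CO relative to TSW in MM.1S, beside 0.01, 0.01 and -0.00 over all genes tested. In RPMI8226 it was 0.17, 0.25 and 0.01, beside -0.08, -0.09 and -0.04. These medians were the same with genes at 0 in a condition set to the level of 3 reads.

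Among the other ligands, 20 of 42 had no read in any MM.1S library and 14 of 42 in RPMI8226. In MM.1S 6 were tested and in RPMI8226 9. Of these, CXCL8, CCL2 and CCL7 in MM.1S and CCL2, CCL7, CXCL2 and CXCL3 in RPMI8226 were under 2 RPKM in both MONO and TSW and were tested only because of their level in CO. They had to be higher there, so they are left out of the counts. Of the 3 others in MM.1S, 1 fell in TSW against MONO, none was called in CO against MONO, and 1, the copy CCL4L2, fell in CO against TSW. Of the 5 others in RPMI8226, 3 rose and 2 fell in TSW against MONO, 3 rose and 2 fell in CO against MONO, and 1 rose in CO against TSW. CXCL8 is among those that rose in each comparison, but it passed the filter through its level in TSW and CO, so its calls are not read.

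CXCL8, the main neutrophil chemokine, had no read in MONO or TSW of MM.1S and was at 25.5, 23.0 and 22.7 RPKM in CO. This is at least 122-fold above MONO (log2 fold change 4.63) and at least 177-fold above TSW. In RPMI8226 it was at 0.0470 and 0.158 RPKM in MONO, at 3.42 and 3.66 RPKM in TSW and at 42.7 and 67.9 RPKM in CO. There its log2 fold change was 2.04 in TSW and 5.64 in CO relative to MONO, and 3.60 in CO relative to TSW (SE 0.17 for each). It passed the filter through its level in TSW and CO, so no call is read from it.

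CCL2, the ligand of CCR2, had means of 0.156 RPKM in MONO, 1.61 RPKM in TSW and 5.15 RPKM in CO of MM.1S. It rose in TSW relative to MONO (log2 fold change 1.18, adjusted p = 0.000148) and was above MONO in CO (2.40). In CO it was also above TSW, by 1.23 (SE 0.14), and by 1.13 to 1.66 over its 16 alternatives. Its level in CO decided that it was tested, so no call is read there, and with a pseudocount of 0.1 none was made. In RPMI8226 it was at 0.259 RPKM in MONO, 0 in TSW and 5.47 RPKM in CO, above MONO by 2.35 and at least 24.5-fold above TSW. In RPMI8226 TSW, where CCL2 had no read in the MM cells, the mean of its receptor CCR2 was 157 RPKM. A link between the levels of CCL2 and CCR2 was not tested.

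CCL7, another ligand of CCR2, was higher in CO than in MONO in both lines, at 3.26 RPKM beside 0.248 RPKM in MM.1S (log2 fold change 1.76) and at 4.25 RPKM beside 0 in RPMI8226 (2.39). CXCL2 and CXCL3, neutrophil chemokines like CXCL8, had no read in MONO or TSW of either line. In RPMI8226 CO they were at 5.12 and 4.58 RPKM, at least 25.7-fold and 22.1-fold above MONO. In MM.1S CO they were at 2.94 and 2.08 RPKM and were not tested, as their means over all MM.1S libraries were under 1.

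CXCL12, the ligand of CXCR4, was the most abundant of the other ligands over all RPMI8226 libraries. It was at 18.6 and 19.3 RPKM in MONO, 32.7 and 34.1 RPKM in TSW and 36.4 and 38.8 RPKM in CO. CXCL10 was above CXCL12 in MONO (mean 45.9 RPKM), and CXCL8 was above CXCL12 in CO (mean 55.3 RPKM). CXCL12 rose in TSW (log2 fold change 0.79, adjusted p = 5.7e-06) and in CO (0.95, adjusted p = 9.88e-07; SE 0.07) relative to MONO, while CXCR4 was lower there than in MONO. MM.1S had at most 5 reads on CXCL12 in a library.

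CXCL10, the ligand of CXCR3, fell in RPMI8226 from 45.9 RPKM in MONO to 6.31 RPKM in TSW (log2 fold change -2.69, adjusted p = 5.88e-09) and 8.38 RPKM in CO (-2.33, adjusted p = 1.19e-08; SE 0.09). In MM.1S its means were 14.1, 7.83 and 11.2 RPKM in MONO, TSW and CO, and it fell in TSW (-0.77, SE 0.11, adjusted p = 0.000575) and was not called in CO (-0.29, adjusted p = 0.0643). CXCL16, the ligand of CXCR6, fell in RPMI8226 from 4.93 to 2.11 RPKM in TSW (adjusted p = 0.000169) and to 2.05 RPKM in CO (adjusted p = 0.000117). CCL1, the ligand of CCR8, rose from 10.2 RPKM to 25.6 RPKM in TSW (adjusted p = 1e-06) and 20.5 RPKM in CO (adjusted p = 5.93e-06) in RPMI8226.

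Of the other chemokine receptors, 4 were tested in MM.1S, and 2 fell in TSW and in CO relative to MONO, CXCR3 and CCR10. The most abundant there over all libraries was XCR1, the receptor of XCL1, at 9.63 RPKM beside 9.36 RPKM for CCR10. XCR1 had means of 7.87, 11.3 and 9.71 RPKM in MONO, TSW and CO, and was not called in any comparison. In MONO, CCR10 (15.2 RPKM) and CXCR3 (11.5 RPKM) were above it. In RPMI8226, 5 were tested: relative to MONO, 2 rose, CCR3 among them, and CXCR3 and CX3CR1 fell, in TSW and in CO. CCR3 is outside the rule for named genes and was named after its values were seen.

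CXCR3, the receptor of CXCL10, was at 11.5, 11.6 and 11.3 RPKM in MONO, at 2.70, 1.33 and 1.93 RPKM in TSW and at 1.57, 2.04 and 1.46 RPKM in CO of MM.1S. It fell by similar amounts in TSW (log2 fold change -2.09, adjusted p = 4.29e-06) and CO (-2.22, adjusted p = 2.57e-06; SE 0.15) relative to MONO. In RPMI8226 it fell from a mean of 19.8 RPKM in MONO to 2.99 RPKM in TSW (-2.39, adjusted p = 6.94e-08) and 5.09 RPKM in CO (-1.78, adjusted p = 3.65e-07; SE 0.12). CO was above TSW there (0.61, adjusted p = 0.00491), a call that was lost without CO replicate 2 (0.48, adjusted p = 0.0669) or without TSW replicate 1 (0.49, adjusted p = 0.0232, a fold under 1.5), with adjusted p from 0.000333 to 0.0669 over its 14 alternatives. Like CXCR4, CXCR3 was lower in TSW and CO than in MONO in both lines.

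CX3CR1, the fractalkine receptor and the most abundant of the other receptors in RPMI8226, fell from 151 RPKM in MONO to 32.6 RPKM in TSW (-2.18, adjusted p = 2e-09) and 42.2 RPKM in CO (-1.82, adjusted p = 5.62e-09; SE 0.06). In MM.1S CCR10, the receptor of CCL27 and CCL28, fell from 15.2 RPKM in MONO to 6.17 RPKM in TSW (-1.17, adjusted p = 0.000142) and 6.71 RPKM in CO (-1.07, adjusted p = 0.000256; SE 0.14).

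ACKR3, a scavenger receptor of CXCL12 named after its values were seen, had no read in MONO or TSW of either line and was at 1.26 RPKM in MM.1S CO and 1.52 RPKM in RPMI8226 CO, at least 9.81-fold and 16.4-fold above MONO. It was not tested, as its mean over all libraries of a line was under 1.

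**Figure D4:**
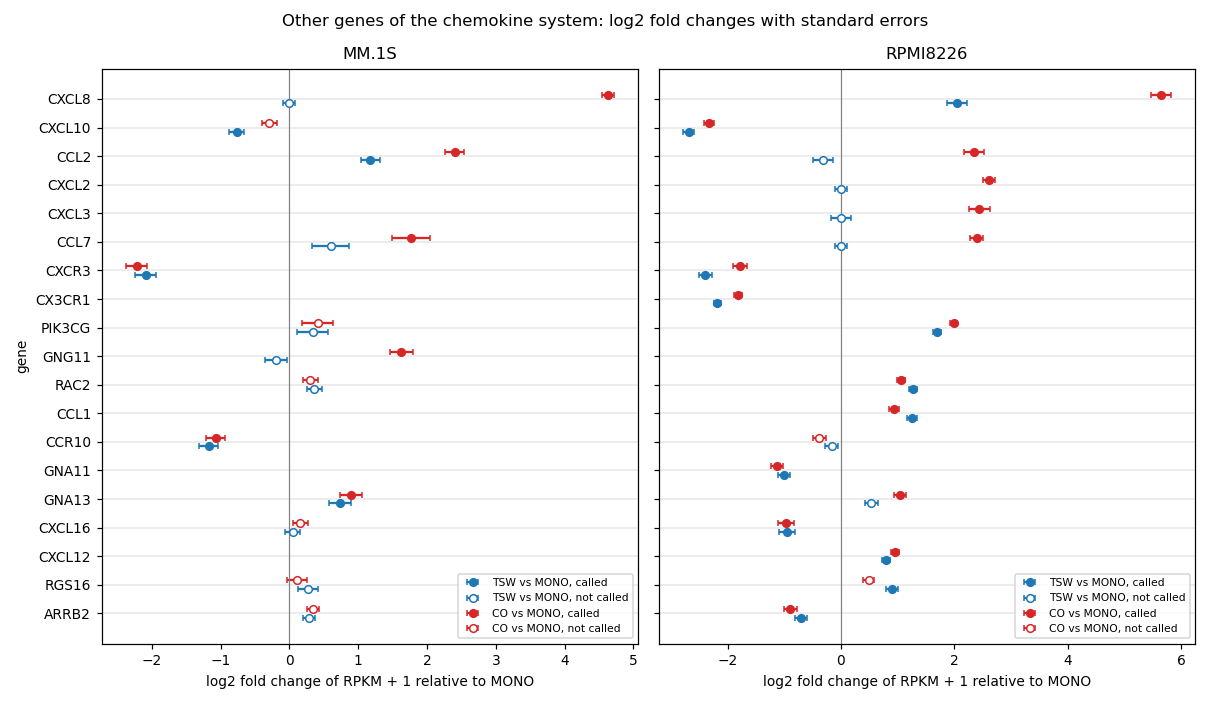
Log2 fold change of RPKM + 1 relative to MONO (x-axis) of 19 named list genes (y-axis) in TSW and CO of MM.1S (left panel) and RPMI8226 (right panel); filled points are called, open points are not, bars are standard errors, and genes not tested in a line have no point. CXCL8 in CO reaches 4.63 in MM.1S and 5.64 in RPMI8226, and CXCR3 is between -2.39 and -1.78 in both conditions and lines.

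RGS1 was far above the other RGS genes in MM.1S, where the most abundant of them was RGS2 at 19.7 RPKM over all libraries. In each line 5 other RGS genes were tested. In MM.1S, RGS2 rose in TSW against MONO (0.59, adjusted p = 0.00161) and none was called in CO against MONO or TSW. In RPMI8226, RGS16 rose in TSW, from 12.2 to 23.7 RPKM (0.90, adjusted p = 2.4e-05), and RGS10 fell in CO (-0.72, adjusted p = 0.000902). None of these moved as far as RGS1 did in the same line. RGS10 is outside the rule for named genes and was named after its values were seen.

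Of the other positioning receptors, the sphingosine 1-phosphate receptor gene S1PR2 was the most abundant in both lines, at 10.6 RPKM in MM.1S and 3.56 RPKM in RPMI8226 over all libraries. It was the 1 gene of its list tested in MM.1S and fell in TSW against MONO (-0.74, adjusted p = 0.00022). In RPMI8226, 2 were tested and none was called.

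Among the genes of receptor signalling, 28 were tested in MM.1S. Without GNG11, which was tested only because of its level in CO, 1 of 27 rose in TSW and 1 in CO against MONO, and none was called in CO against TSW. In RPMI8226, 29 were tested: 4 rose and 2 fell in TSW against MONO, 5 rose and 2 fell in CO against MONO, and none was called in CO against TSW. The genes called were 20.7% of the list in TSW and 24.1% in CO against MONO. Over all genes tested there, 14.5% were called higher and 17.9% lower in TSW, and 16.4% and 22.9% in CO, against MONO. The most abundant was RHOA, a GTPase of cell motility, at 330.4 RPKM in MM.1S and 345 RPKM in RPMI8226 over all libraries, and it was not called in any comparison.

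PIK3CG, the catalytic subunit of the PI3K that G beta-gamma subunits activate, rose in RPMI8226 from 16.8 RPKM in MONO to 56.6 RPKM in TSW (log2 fold change 1.69, adjusted p = 1.37e-08) and 69.5 RPKM in CO (1.99, adjusted p = 3.96e-09; SE 0.07). RAC2, a GTPase of blood cell migration, rose from 105.5 RPKM in MONO to 256 RPKM in TSW (adjusted p = 1.23e-07) and 219.8 RPKM in CO (adjusted p = 3.12e-07). The G alpha gene GNA11 fell from 2.89 RPKM to 0.947 RPKM in TSW (adjusted p = 1.71e-05) and 0.791 RPKM in CO (adjusted p = 5.41e-06). ARRB2, the arrestin that turns off and internalises receptors, fell from 25.1 RPKM to 13.1 RPKM in CO (adjusted p = 3.9e-05) and to 15.2 RPKM in TSW (-0.70, adjusted p = 0.000273), a call lost without TSW replicate 1 (-0.51, a fold under 1.5).

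GNA13, which couples receptors to RHOA, rose in MM.1S from 20.04 RPKM in MONO to 37.5 RPKM in CO (0.90, SE 0.16, adjusted p = 0.00217) and to 33.3 RPKM in TSW (0.73, adjusted p = 0.00701), a call lost without MONO replicate 1 (0.53, a fold under 1.5). In RPMI8226 it rose from 22.4 to 47.0 RPKM in CO (1.04, adjusted p = 1.13e-05) and was not called in TSW (0.54). GNG11, a G gamma gene, was at 3.90 RPKM in MM.1S CO, beside 0.580 RPKM in MONO and 0.384 RPKM in TSW. VAV1 and PTK2B rose in TSW of RPMI8226, and GNG12 and PTK2B in CO, relative to MONO; these were named after their values were seen.

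Lists of cell type markers were read beside these genes, since CO cells had shared a chamber with HS5 cells before the sort. Of 32 stromal markers, 19 were tested in MM.1S and 15 in RPMI8226, and 14 and 9 of these were under 2 RPKM in both MONO and TSW. As those were tested only because of their level in CO, they are left out of the counts. Of the 5 others in MM.1S, 2 fell in TSW against MONO, 1 rose and 1 fell in CO against MONO, and 2 rose in CO against TSW. Of the 6 others in RPMI8226, 3 fell in TSW against MONO, 2 rose and 2 fell in CO against MONO, and 1 rose in CO against TSW. Among all 15 tested in RPMI8226, 1 was called higher in TSW against MONO, and it is among those left out. Some of the list is made by MM cells: FN1 alone was at 4150 RPKM in MONO of RPMI8226, and CAV1 was at 17.6 RPKM in MONO of MM.1S.

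In MM.1S, the summed stromal markers were at 34.6, 39.0 and 39.5 RPKM in MONO, at 24.5, 24.3 and 25.4 RPKM in TSW and at 186, 203 and 169.6 RPKM in CO, where MMP1 was the most abundant with a mean of 44.2 RPKM. In RPMI8226, with FN1 left out, they were at 61.4 and 65.7 RPKM in MONO, at 31.6 and 33.9 RPKM in TSW and at 126 and 172 RPKM in CO. With FN1 the RPMI8226 sums were 4051 and 4376 RPKM in MONO, 1709.7 and 1996 RPKM in TSW and 2133 and 2341 RPKM in CO. The CO libraries held the most stromal RNA in both lines once FN1 was left out.

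The defining collagen genes COL1A2 and COL3A1 had no read in MONO or TSW of either line. In CO, COL1A2 was at 11.5 ± 1.69 RPKM in MM.1S (SD, n = 3) and 4.95 ± 1.27 RPKM in RPMI8226 (SD, n = 2), and COL3A1 was at 9.64 ± 1.45 RPKM and 2.78 ± 0.120 RPKM. COL1A1 was at 0.0988, 0.108 and 5.46 RPKM in MONO, TSW and CO of MM.1S and at 0.465, 0.130 and 1.17 RPKM in RPMI8226. THY1, which encodes the CD90 of the sort, was at 0.504 RPKM in MM.1S CO and 0.0939 RPKM in RPMI8226 CO. CXCL8, CXCL2, CXCL3, CCL2, CCL7, GNG11 and ACKR3 had their highest means in CO, as these markers did. CXCL8 in RPMI8226 and CCL2 in MM.1S were also above MONO in TSW, where COL1A2 and COL3A1 had no read and the stromal sums were below those of MONO. The study reports that a small remainder of HS5 cells was found among the sorted CO cells, and the part of stromal RNA in the CO values was not tested.

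Of the members, CCL3, CCL3L3 and CCL5 were lower in CO than in TSW in MM.1S, while CXCR4 and RGS1 were higher. The TSW libraries, in which COL1A2 and COL3A1 had no read, had the same direction relative to MONO as the CO libraries for CCL3, CCL5, CXCR4 and RGS1 in MM.1S and for CCL5, CXCR4, CCR1, CCR2 and RGS1 in RPMI8226, each without overlap.

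**Figure D5:**
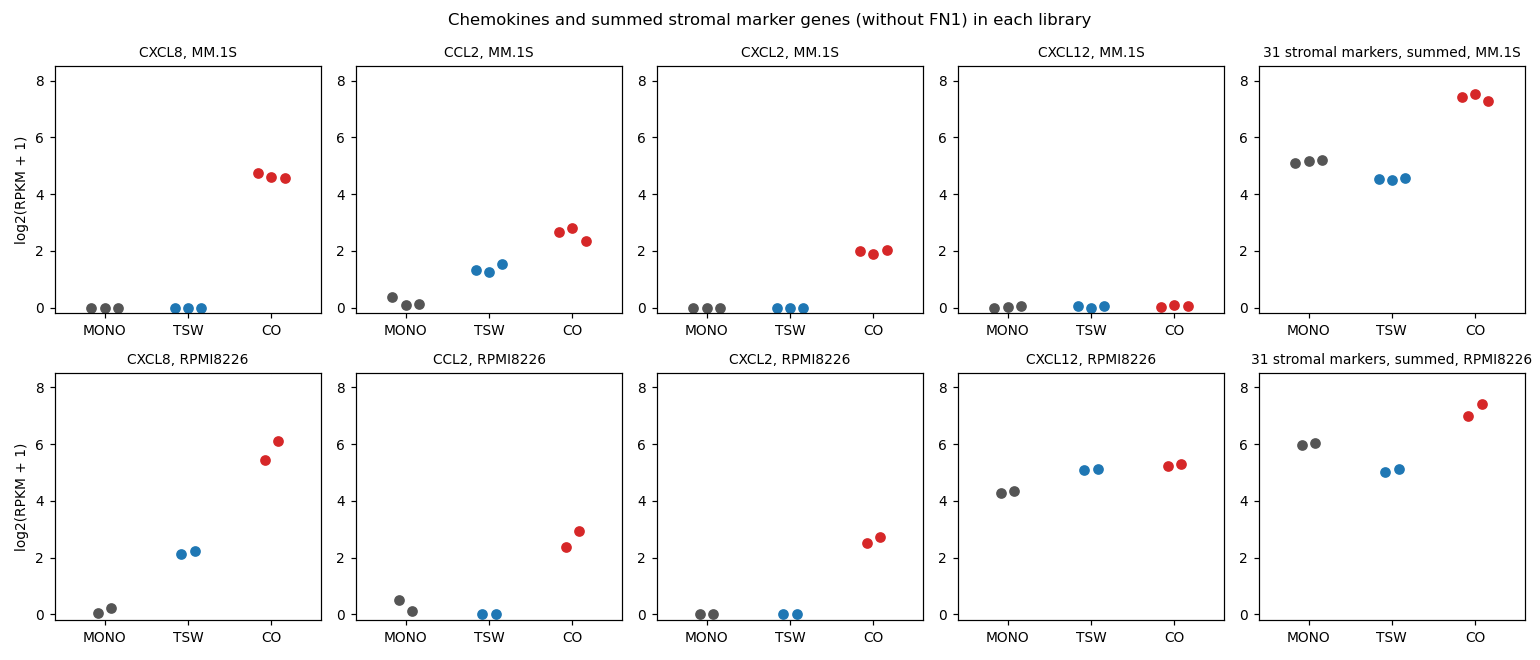
Level as log2(RPKM + 1) (y-axis) of CXCL8, CCL2, CXCL2, CXCL12 and the sum of 31 stromal markers without FN1 in each library (points) of MONO, TSW and CO, for MM.1S (upper panels) and RPMI8226 (lower panels). CXCL2 is at 0 in MONO and TSW of both lines and at 2.70 to 5.56 RPKM in CO, and CXCL12 in RPMI8226 is between 18.6 and 38.8 RPKM in all conditions.

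All 10 plasma cell markers were above 0 in every library. Their sum was 5398 ± 481, 4001 ± 73.7 and 3746 ± 162 RPKM in MONO, TSW and CO of MM.1S (SD, n = 3) and 2443 ± 60.5, 4365 ± 128 and 4501 ± 55.4 RPKM in RPMI8226 (SD, n = 2). JCHAIN, the joining chain of antibodies, was the most abundant of them in each condition. In MM.1S, 3 of 10 tested rose and 2 fell in TSW against MONO, and 2 rose and 2 fell in CO against MONO. In RPMI8226, 6 of 9 tested rose and 2 fell in each of these comparisons, and none was called in CO against TSW in either line. In TSW and CO the sum lay below MONO in MM.1S and above MONO in RPMI8226. JCHAIN alone carried the difference in MM.1S, where its means were 3753, 2075 and 1985 RPKM in MONO, TSW and CO. The 9 other markers summed to 1645.5, 1926 and 1761 RPKM in MM.1S, where libraries of MONO overlap those of TSW and CO, and to 1028, 1896 and 1630 RPKM in RPMI8226, so without JCHAIN the mean was above MONO in both lines.

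As CCR1, CCR2 and CCL5 are also known from monocytes and T cells, markers of these cells were read as well. The 11 myeloid markers summed to 2.77 ± 0.393 RPKM in MONO, 26.1 ± 1.89 RPKM in TSW and 34.3 ± 4.56 RPKM in CO of RPMI8226 (SD, n = 2), led in TSW and CO by S100A9 (15.4 and 18.5 RPKM). All 3 myeloid markers tested in RPMI8226 were higher in TSW and in CO than in MONO. Only 1 of the 11 had a mean of 1 RPKM or more in MONO. The others tested passed the filter through TSW and CO, so no call is read from them. Of the defining myeloid genes, CD14 had at most 3 reads and LYZ at most 7 in an RPMI8226 library, while CSF1R was at 0.124, 1.88 and 2.52 RPKM in MONO, TSW and CO. Their part in the levels of CCR1 and CCR2 was not tested.

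In MM.1S the myeloid markers summed to 2.02, 3.76 and 4.35 RPKM in MONO, TSW and CO, and the 1 tested rose in TSW and in CO against MONO. The 11 T and NK cell markers summed to 3.72, 4.04 and 5.02 RPKM in MM.1S and 2.17, 2.40 and 2.08 RPKM in RPMI8226, with 1 tested in each line. These were different genes, KLRF1 in MM.1S and CD8A in RPMI8226, both under 2 RPKM in MONO and TSW. KLRF1 passed the filter through its level in TSW and CO (1.69 and 2.03 RPKM), so no call is read from it. CD8A was not called in any comparison. CD3D was at 0 in every library, and NKG7 in every MM.1S library, while CD3E was at 1.74, 0.374 and 0.606 RPKM in MONO, TSW and CO of MM.1S.

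For each member with a mean RPKM of 1 or more in MM.1S, the 3 genes with the most similar pattern were found by Pearson correlation over the 9 MM.1S libraries among 10152 other genes. For CCL3 they were MSRA (0.98), SH3GL2 (0.97) and DONSON (0.96), and for CCL3L3 they were BSPRY (0.95), CCL3 (0.91) and CAV2 (0.91). For CCL5 they were PCP4 (0.997), HOMER3 (0.996) and SPINK2 (0.995). PCP4, a calmodulin-binding protein, was at 443, 93.1 and 86.4 RPKM in MONO, TSW and CO of MM.1S.

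The nearest patterns to CXCR4 were those of SCNN1G, TYRO3 (both 0.99) and FMNL3 (0.98), and those to RGS1 were HEXD, UNC13C and FCMR (each 0.99). CCR1 was nearest to INCENP (0.98), RACGAP1 (0.97) and CIT (0.97), which act in cell division. Over the 6 RPMI8226 libraries, the pairs of CXCR4 with SCNN1G, TYRO3 and FMNL3 had correlations of 0.97, 0.92 and 0.75, and those of RGS1 with HEXD, UNC13C and FCMR had 0.19, -0.69 and 0.95. Those of CCL5 with PCP4 and HOMER3 had -0.99 and -0.73, and those of CCR1 with INCENP, RACGAP1 and CIT had -0.93, -0.97 and -0.48. Those of CCL3, which had at most 15 reads there, with MSRA, SH3GL2 and DONSON had 0.97, -0.55 and -0.78. CCL3L3 and SPINK2 had no read in RPMI8226 and gave no value. SCNN1G had a mean of only 0.0615 RPKM in RPMI8226. These correlations again follow the differences between conditions, and they say nothing of shared function or control.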

How the data were processed

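The deposited tables of the authors hold log2(RPKM + 1) with 0.0001 added to each value, which was subtracted before any step; the design had assumed RPKM. By the submitters' notes, reads were aligned to hg38 with Subread and counted on RefSeq genes with featureCounts. All 15 value columns were used, and 20407 of the 20468 Entrez IDs matched RefSeq. The steps between values gave back the read counts, with 100% of the values within 0.05 of a whole number, and these counts gave the depth and the floors of 3 reads. Within each line, limma 3.58.1 in R 4.3.3 was fitted to log2(RPKM + 1), with a pseudocount of 1, for genes whose mean RPKM was 1 or more, with the 3 conditions in 1 fit and a mean-variance trend. A call needed an adjusted p (Benjamini-Hochberg, over all genes tested) under 0.05 and more than a 1.5-fold difference. The authors' own comparisons used edgeR and left out stromal signature genes and genes with closed promoters, which was not repeated here.

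The members and lists were chosen with earlier results of these data known. The list genes named are 19 of the 20 with the largest absolute log2 fold change among those called, and the most abundant gene of each list; others are said to be named after their values were seen. As alternatives, the filter was dropped or raised to a mean RPKM of 5, the pseudocount was set to 0.1, the values were rescaled by median of ratios or by quantiles, voom was run on the read counts, replicate number entered as a block, the fit was limited to the 2 conditions compared, near-identical copies were summed, and each library was left out in turn. Leaving out genes that MONO and TSW held at an RPKM under 2 was added after seeing the data. The procedure was tested on simulated data. Python 3.11.15, numpy 2.4.6, pandas 2.3.3 and matplotlib 3.10.9 made the tables and figures.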

Additional observations from a re-analysis of the deposited data

Results flagged for a closer look

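In some results every library of a line moved one way relative to the compared condition and every library of the other line moved the opposite way; none of these differences between the lines was tested. The log2 fold change of CCL3 was -1.31 in TSW and -3.16 in CO relative to MONO in MM.1S, against 0.97 and 0.53 in RPMI8226, where CCL3 had at most 15 reads. For CCL5 it was -2.46 and -2.68 in MM.1S against 1.62 and 1.66 in RPMI8226, and for RGS1 it was -1.46 and -1.20 against 2.58 and 3.38.

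Among the list genes, CCL2 was at 1.18 in TSW relative to MONO in MM.1S and at -0.32 in RPMI8226, where it was not called and had 4 and 1 reads in MONO and 0 in TSW. GNA11 was at 0.37 in CO relative to MONO and 0.47 relative to TSW in MM.1S, against -1.12 and -0.12 in RPMI8226; in MM.1S it had 4 to 37 reads per library, under the filter, and was not tested. ARRB2 was at 0.29 in TSW and 0.34 in CO relative to MONO in MM.1S, against -0.70 and -0.89 in RPMI8226. These differences were not tested.

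The log2 ratio of summed plasma cell markers was -0.43 in TSW and -0.53 in CO relative to MONO and -0.10 in CO relative to TSW in MM.1S, against 0.84, 0.88 and 0.0442 in RPMI8226. JCHAIN carried the difference from MONO in MM.1S: the 9 other markers summed to 1645.5, 1926 and 1761 RPKM in MONO, TSW and CO of MM.1S and 1028, 1896 and 1630 RPKM in RPMI8226, above MONO in both lines. That of the stromal markers was 2.30 in CO relative to MONO in MM.1S and -0.91 in RPMI8226, where FN1 made up most of the sum. Without FN1 the sum was higher in CO than in MONO in both lines, at 169 beside 34.8 RPKM in MM.1S and 149 beside 63.6 RPKM in RPMI8226. That of the T and NK cell markers was 0.31 in CO relative to TSW in MM.1S and -0.20 in RPMI8226. These differences between the lines were not tested.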

How the results depend on the processing

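Of 194 counts of called genes under alternatives, 177 were within 1.5 times the count reported. Chemokine system genes called in CO against MONO of MM.1S (7) became 4 with a mean RPKM of at least 5, 13 without a filter, 11 with voom on recovered reads and 3 without those that MONO and TSW held at an RPKM under 2, the last added after seeing the data. In CO against TSW of MM.1S (4) they became 1, 10, 3 and 1, and 2 with a pseudocount of 0.1; in CO against MONO of RPMI8226 (21) they became 13 with a mean RPKM of at least 5; and in CO against TSW of RPMI8226 (6) they became 2, 10, 6 and 2. All genes called in CO against TSW of MM.1S (42) became 7, 134, 45 and 12, and in RPMI8226 (443) they became 672 with voom. The filters change which genes are tested; the cause of the other shifts was not tested. With each library left out in turn, genes called in MM.1S ranged from 966 to 1492 in TSW against MONO (1080), 965 to 1696 in CO against MONO (1196) and 34 to 51 in CO against TSW, and in RPMI8226 from 3299 to 3418 (3352), 4007 to 4110 (4056) and 319 to 718, the last without TSW replicate 1. Chemokine system genes ranged from 6 to 8, 7 to 8 and 3 to 4 in MM.1S and from 15 to 17, 20 to 22 and 5 to 7 in RPMI8226. Leaving out an RPMI8226 library leaves 1 in a condition, and limma then takes it to vary like the others. With replicate number as a block, genes called were 1081, 1209 and 40 in MM.1S and 3353, 4059 and 448 in RPMI8226, and chemokine system genes 7, 7, 4, 16, 21 and 6; TSW and CO libraries may come from shared wells, but the labels do not pair them, so pairing entered only in this way. Same-numbered libraries had correlations of residuals from -0.380 to 0.286 in MM.1S, the best match in TSW against MONO for each number but for 0 of 3 in CO against MONO and 1 of 3 in CO against TSW, and from 0.164 to 0.271 in RPMI8226, each the best match, where 2 libraries per condition give 1 value per comparison. Of 393 log2 fold changes of members under alternatives, 361 moved by less than the spread of replicates, 23 moved by more and 9 changed sign. These 9 were CCL3L3 in TSW against MONO of MM.1S without 1 library (2 of them, in a range from -0.22 to 0.11), CCL4 in TSW against MONO of MM.1S with copies summed (0.0783), CCR1 in CO against TSW of MM.1S with quantile normalization (0.0420) or without 1 library (-0.0360 to 0.0406), and CO against TSW of RPMI8226 without 1 library for CCL5 (-0.0571 to 0.156), CCR1 (-0.00867 to 0.0875) and CXCR4 (-0.0323 to 0.135). Their cause was not tested beyond these settings, and the libraries overlap in each of these comparisons but that of CCL4. Summing copies gives no value for CCL4 in RPMI8226, where it is at 0. Of 713 values for the 49 called results of the 19 named list genes, 708 kept the call, 5 lost it and 0 turned. No scaling moved the median of all genes by more than 0.0945. Depth limits CCL4 (1 to 20 reads per library) and CCR2 (9 to 35) in MM.1S and CCL3 (0 to 15) in RPMI8226, where CCL3L3 and CCL4 had no read.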
